A study of Mus musculus with 6 samples.

Results

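The genes described here are 36 transcripts of macrophages and of leukocytes that present antigen, read in RNA from digests of mouse cartilage. They were fixed as a list of gene symbols, and all 36 symbols were found among the 43346 genes of the deposited table. The 6 libraries came from 3 Girk3-null mice (Girk3-/-, genotype label Girk3 KO) and 3 wild type mice (genotype label WT), all of C57BL/6 strain, 5 days old and labelled male. No treatment was given in either group, and the labels name no promoter or Cre behind the deletion. Epiphyseal chondrocytes were released by collagenase, in a short and then an overnight digestion, and RNA was taken from the washed cells without sorting. The comparison asks how the transcripts of these digests differ when Girk3, a subunit of G protein-gated potassium channels encoded by Kcnj9, is missing.

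Total counts per library ranged from 34279516 to 60392837, and the 36 genes together took 0.0576% to 0.0942% of them. Col2a1, the main collagen of cartilage, took 5.04% to 8.25% in Girk3-null and 3.12% to 5.33% in wild type libraries. Of 12 chondrocyte markers 11 had a positive log2 fold change (Girk3-null over wild type), against 51.8% of all tested genes, with a median of 0.57. In edgeR 6 were higher at an unadjusted p under 0.05 (7.49% of all tested genes) and 0 passed at an adjusted p of 0.05. The groups overlapped for 9 of the 12, and Girk3-null lay above for 3 (9.86% of all tested genes). The part of this difference in the values below was not tested. Kcnj9 had 0 counts in all 6 libraries and gave no check of the genotype labels. The sex label did not match 5 libraries: 4 Y-linked genes summed to 16088 counts in Girk3-null replicate 1 but to 0 to 7 elsewhere, while Xist stood at 19 counts in that library and at 67346 to 144825 in the rest. Results are therefore also given without Girk3-null replicate 1.

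Macrophages are phagocytes that most tissues keep as resident cells, and their survival depends on the receptor Csf1r. They take up debris through scavenger receptors, signal through small membrane adaptors that carry activation motifs, and degrade what they ingest with lysosomal enzymes. Together with dendritic cells and B cells, some of them load peptides on MHC class II molecules, heterodimers of an alpha and a beta chain guided by the invariant chain Cd74. Cartilage itself has no vessels, and macrophages lie in the marrow and the perichondrium around it. In bulk RNA, fewer cells of a type and less RNA per cell cannot be told apart.

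RefSeq promoter windows (GRCm38.p6) were at hand for 27 of the 36 genes, and the 250 bases before the transcription start were searched on both strands. The first set is shown because the class II genes moved together between libraries, and their promoters are known for a Y box bound by NF-Y. The letters CTGATTGG, in capitals, were present in 2 of the 27 windows, H2-Aa and H2-Eb1, and in 4.43% of all 27025 genes with a window. H2-Ab1 and Cd74 had no window and were not searched.
H2-Aa (chr17:34287824-34288073, - strand): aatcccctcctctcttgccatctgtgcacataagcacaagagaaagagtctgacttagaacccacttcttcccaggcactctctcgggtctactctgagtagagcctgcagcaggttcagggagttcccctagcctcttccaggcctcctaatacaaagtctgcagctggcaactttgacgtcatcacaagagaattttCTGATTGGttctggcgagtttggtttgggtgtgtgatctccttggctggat
H2-Eb1 (chr17:34305617-34305866, + strand): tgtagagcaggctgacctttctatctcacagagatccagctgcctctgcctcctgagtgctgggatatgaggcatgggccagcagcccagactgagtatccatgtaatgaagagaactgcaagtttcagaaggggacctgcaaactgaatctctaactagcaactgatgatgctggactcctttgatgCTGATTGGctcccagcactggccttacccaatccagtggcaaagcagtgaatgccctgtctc
The match began 51 bases before the start in H2-Aa and 62 bases before it in H2-Eb1, and both read in the direction of the gene. A further set shows the letters GAGGAA, the core bound by PU.1, the myeloid factor encoded by Spi1. These letters, in capitals on either strand, stood in 12 of the 27 genes and in 25.9% of all genes with a window. The motif does not overlap the Y box letters. The 3 genes of highest mean RPKM among those 12 are printed.
Cd68 (chr11:69666171-69666420, - strand): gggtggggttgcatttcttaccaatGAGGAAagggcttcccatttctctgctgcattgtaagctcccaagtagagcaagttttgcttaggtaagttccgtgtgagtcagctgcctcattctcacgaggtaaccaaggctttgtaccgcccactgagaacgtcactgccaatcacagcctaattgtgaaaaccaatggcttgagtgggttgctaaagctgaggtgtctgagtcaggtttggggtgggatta
Ctss (chr3:95526536-95526785, + strand): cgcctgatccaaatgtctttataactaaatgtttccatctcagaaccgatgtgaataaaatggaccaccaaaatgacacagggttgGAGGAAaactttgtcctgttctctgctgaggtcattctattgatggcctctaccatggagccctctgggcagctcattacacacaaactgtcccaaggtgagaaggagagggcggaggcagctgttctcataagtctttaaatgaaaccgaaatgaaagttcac
Pf4 (chr5:90772185-90772434, + strand): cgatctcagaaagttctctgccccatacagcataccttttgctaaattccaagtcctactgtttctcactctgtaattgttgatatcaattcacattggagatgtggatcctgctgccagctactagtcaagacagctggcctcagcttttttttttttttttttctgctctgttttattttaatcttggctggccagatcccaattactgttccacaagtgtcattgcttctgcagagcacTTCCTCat
A match is a description of the letters and no evidence of a bound site.

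The transcripts spanned a wide range of levels. By mean deposited RPKM, a level scaled by gene length and library depth, Lyz2 (54.4), Cd14 (52.4), Cd68 (42.6) and H2-Ab1 (40.9) stood highest, within the top 4.69% to 6.63% of tested genes. Tyrobp (23.7), Ctss (21.6) and Pf4 (20.5) followed. Csf1r stood at 5.17 RPKM, near the middle of the tested genes. At the low end, Aif1 (0.170), Cx3cr1 (0.0760) and Cd163 (0.0546) had 70 to 78 counts over all libraries.

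None of these transcripts differed between the genotypes by the test across all genes. Of 35 genes with enough counts, 0 passed edgeR's quasi-likelihood test at an adjusted p of 0.05, where 0.0057% of all 17554 tested genes passed, and Cd163 had too few counts. At an unadjusted p under 0.05, Cd53, Ms4a7 and Mrc1 were lower in Girk3-null libraries (3 of 35, against 7.02% of all tested genes) and 0 were higher (7.49% of all tested genes). DESeq2 also called 0 of those it gave an adjusted p (3 had none), with 4 at an unadjusted p under 0.05, and limma on log2(RPKM + 0.1) and log2(RPKM + 1) called 0 with 1 and 3. The groups did not overlap, with Girk3-null below wild type, for Cd53 and Ms4a7 (2 of 35, against 10.2% of all tested genes), and for 0 genes with Girk3-null above (9.86%). The 3 lower genes are a share near the background, and the other counts lie below theirs.

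Log2 fold changes, given throughout as Girk3-null over wild type, were negative for 22 of 35 genes (48.2% of all tested genes) and positive for 13 (51.8%), with a median of -0.11, against 0.01 over all genes. That split turned when Girk3-null replicate 3 or wild type replicate 1 was left out. Positive values numbered 20 of 36 without Girk3-null replicate 3 (median 0.04), 21 of 35 without wild type replicate 1 (median 0.09), 12 of 36 without Girk3-null replicate 1 (median -0.17, with 24 negative against 49.5% of all genes) and 9 of 36 without Girk3-null replicate 2 (median -0.31). Among libraries with a title number below 200 (Girk3-null replicate 1, wild type replicates 1 and 2), 26 of 35 genes had a negative difference (48.6% of all tested genes). Among those with a number above 200 (Girk3-null replicates 2 and 3, wild type replicate 3) 9 of 35 did (51.0%). What the title numbers stand for is not given in the sources used here.

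**Figure D1:**
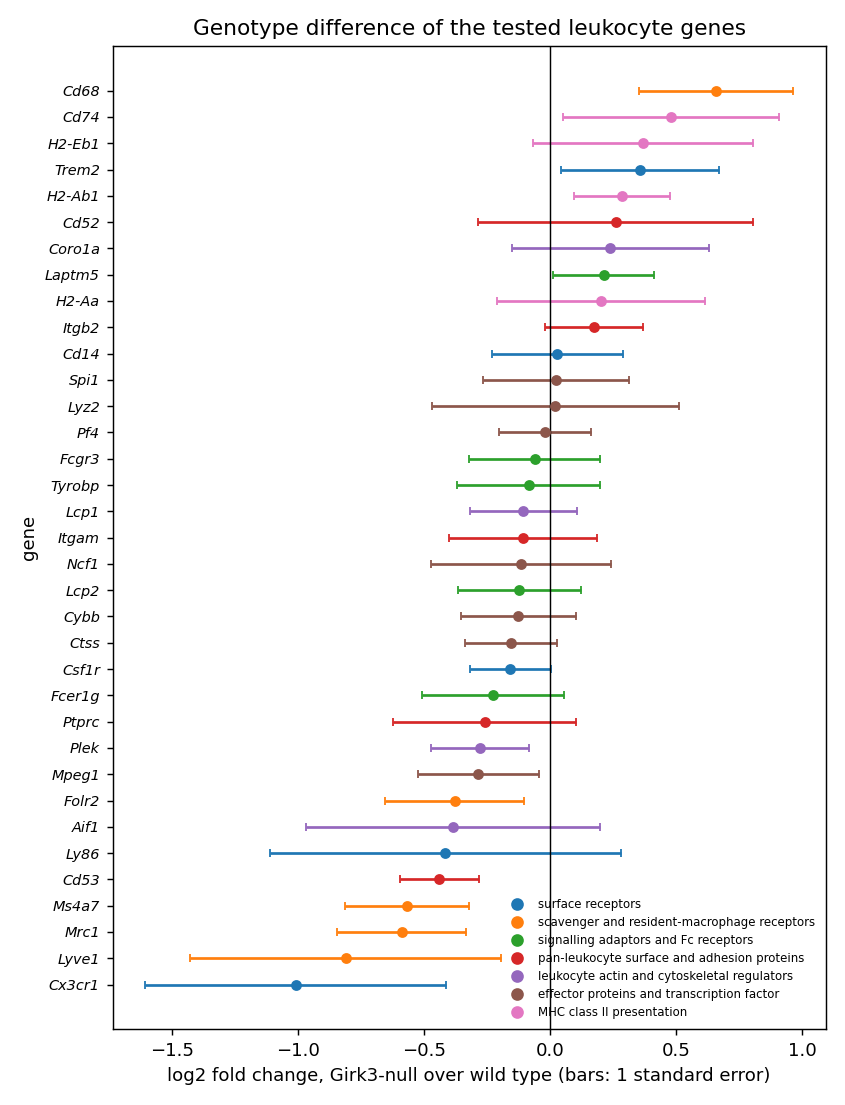
Log2 fold changes of the 35 tested genes (horizontal axis, Girk3-null over wild type, bars 1 standard error from edgeR, n = 3 libraries each), ordered by value and coloured by role. Cx3cr1 is lowest at -1.01 and Cd68 highest at 0.66, and 0 of the 35 passed.

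Libraries of the same genotype differed among themselves. Wild type replicate 1 held the highest value for 18 of the 36 genes and Girk3-null replicate 2 for 9, while Girk3-null replicate 3 held the lowest for 21. Over all tested genes, wild type replicate 1 was highest for 12.3%, Girk3-null replicate 2 for 11.8%, and Girk3-null replicate 3 lowest for 16.8%. The highest library exceeded the lowest by less than 2-fold for 14 of 35 genes, by 2- to 4-fold for 17 and by more than 4-fold for 4, with a median of 2.14 against 1.64 over all tested genes.

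**Figure D2:**
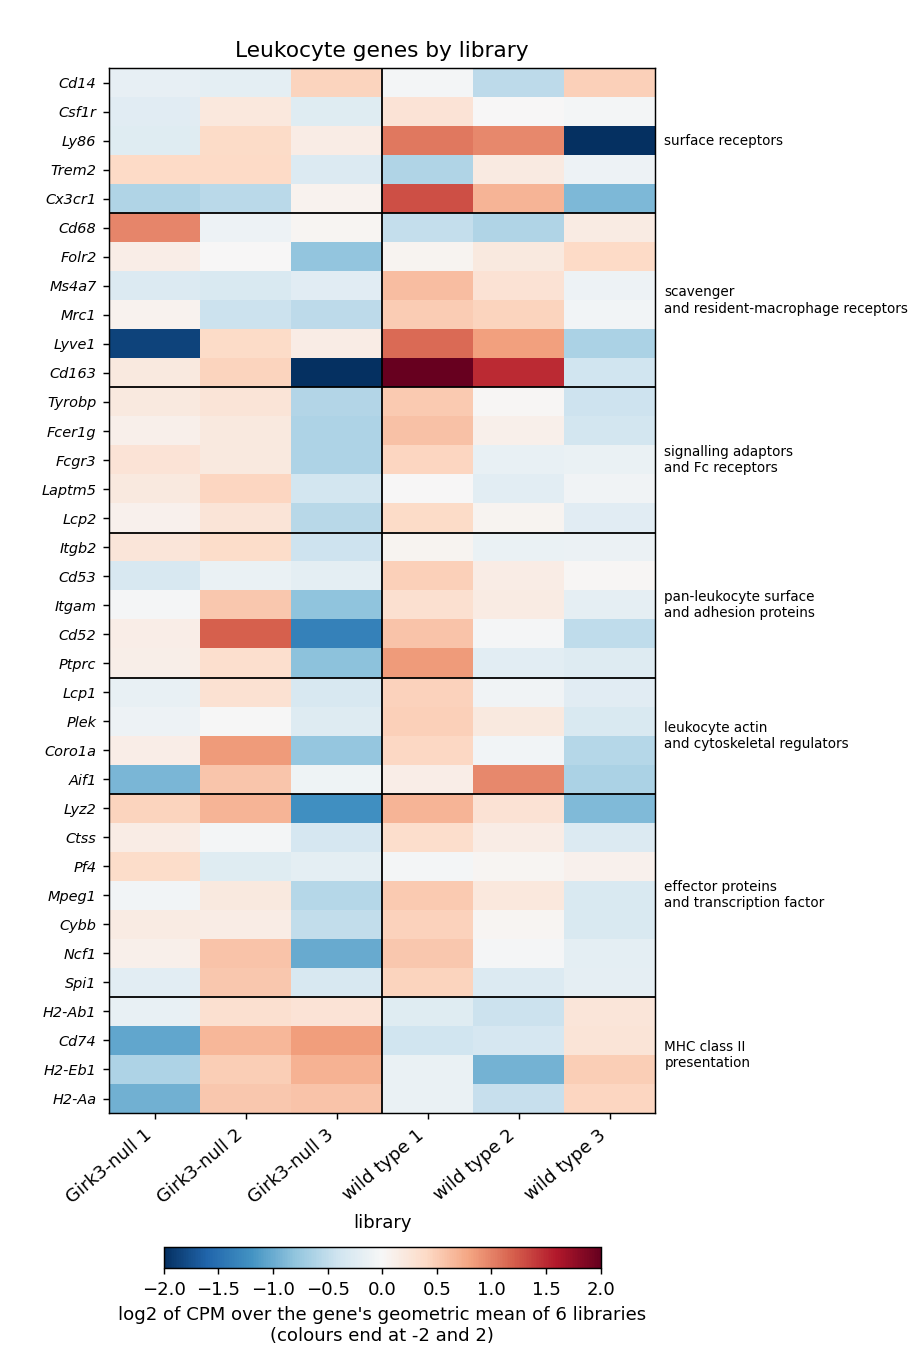
Each cell gives log2 of a gene's CPM over its geometric mean of the 6 libraries (with 0.01 CPM added so that a count of 0 can be drawn), Girk3-null libraries left and wild type right, genes grouped by role. Wild type replicate 1 and Girk3-null replicate 2 are mostly red and Girk3-null replicate 3 mostly blue, whereas the 4 MHC class II rows are red in Girk3-null replicates 2 and 3 and wild type replicate 3.

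Among the surface receptors, Csf1r, the receptor for the macrophage growth factors Csf1 and Il34, was one of the steadiest genes. Its levels, in CPM scaled by TMM factors as all levels by library below, were 21.3, 29.0 and 21.0 CPM in Girk3-null replicates 1, 2 and 3, against 30.2, 25.1 and 24.3 CPM in wild type replicates 1, 2 and 3. The groups overlapped, with a log2 fold change of -0.16 (standard error 0.16, adjusted p = 0.647 in edgeR). The annotated bounds of Csf1r overlap those of Hmgxb3, which had 15232 counts against 6986 for Csf1r. Whether exons overlap was not checked and the strand setting of the counting is not given, so the level of Csf1r is uncertain. The same limit holds for Ncf1 (4472 counts) with Gtf2ird2 (2690), Plek (5743) with Cnrip1 (841), Cd52 (1082) with Aim1l (83) and Cd74 (1717) with Mir5107 (69). It is greatest for Cx3cr1 (78), whose annotated bounds overlap Wdr48 (27235) and Csrnp1 (17242).

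Cd14, a coreceptor for lipopolysaccharide, had 72.1, 70.1 and 109.8 CPM in Girk3-null replicates 1, 2 and 3, against 78.3, 56.3 and 112 CPM in wild type replicates 1, 2 and 3. Its highest values came from 1 library of each genotype, Girk3-null replicate 3 and wild type replicate 3, and the groups overlapped. The log2 fold change was 0.03, with an adjusted p = 0.970 in edgeR. Csf1r and Lyz2 were both lowest in Girk3-null replicate 3.

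Cx3cr1, the fractalkine receptor, was close to the limit of counting at 0.152, 0.160 and 0.249 CPM in Girk3-null libraries, against 0.593, 0.386 and 0.122 CPM in wild type libraries. Its log2 fold change of -1.01 had a standard error of 0.60 (adjusted p = 0.436 in edgeR), and it was -0.50 without wild type replicate 1. Ly86, the secreted partner of the receptor Cd180, had 0.236, 0.367 and 0.312 CPM in Girk3-null libraries, against 0.593, 0.552 and 0.0488 CPM in wild type libraries, so wild type held both the highest and the lowest value. Trem2, a lipid-sensing receptor of macrophages and osteoclasts, averaged 1.79 ± 0.440 CPM among Girk3-null and 1.40 ± 0.367 CPM among wild type libraries (SD, n = 3 each).

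Scavenger receptors and other genes of resident macrophages held 2 of the 3 genes with an unadjusted p under 0.05. Mrc1, the mannose receptor, had 3.02, 2.13 and 1.995 CPM in Girk3-null replicates 1, 2 and 3, against 4.09, 3.94 and 2.78 CPM in wild type replicates 1, 2 and 3. Girk3-null replicate 1 stood above wild type replicate 3, so the groups overlapped. The log2 fold change was -0.59 (standard error 0.26, adjusted p = 0.342 in edgeR), and it was -0.80 without Girk3-null replicate 1 (adjusted p = 0.512).

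Ms4a7, a tetraspan membrane protein of mature macrophages, had 2.04, 1.99 and 2.12 CPM in Girk3-null libraries, against 3.81, 3.02 and 2.29 CPM in wild type libraries. All 3 Girk3-null values lay below the lowest wild type value, by a small margin to wild type replicate 3. The log2 fold change was -0.57 (standard error 0.25, adjusted p = 0.342 in edgeR). It was -0.57 without Girk3-null replicate 1 and -0.37 without wild type replicate 1.

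Folr2, a folate receptor of tissue macrophages, had 3.09, 2.82 and 1.62 CPM in Girk3-null libraries, against 2.92, 3.24 and 3.71 CPM in wild type libraries, and the groups overlapped (log2 fold change -0.38, adjusted p = 0.516 in edgeR). Cd163, the receptor for haemoglobin bound to haptoglobin, had 0.152 and 0.183 CPM in Girk3-null replicates 1 and 2 and 0 counts in replicate 3. In that library up to 0.0875 CPM, scaled by the library total without the TMM factor, could go uncounted. In wild type libraries Cd163 had 0.593, 0.386 and 0.0976 CPM. Lyve1, a hyaluronan receptor of lymphatic endothelium and of some macrophages, averaged 0.783 ± 0.482 CPM among Girk3-null and 1.34 ± 0.705 CPM among wild type libraries (SD, n = 3 each), with a log2 fold change of -0.81 that was -0.35 without Girk3-null replicate 1 and -0.46 without wild type replicate 1.

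Endothelial cells also express Mrc1 and Lyve1. For 9 of 12 endothelial markers all Girk3-null values lay below all wild type values (10.2% of all tested genes), and the summed level of the 12 was 44.5 to 132.8 CPM among Girk3-null and 159 to 251 CPM among wild type libraries. Summed over 6 lymphatic markers the level was 124 to 156.3 CPM among Girk3-null and 169 to 201 CPM among wild type libraries. Pdpn alone took most of these sums, at 116.3 to 139.4 CPM among Girk3-null and 153.9 to 173.3 CPM among wild type libraries. No marker of either list was at 0. Their part in the values of Mrc1 and Lyve1 was not tested.

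Cd68, a lysosomal membrane glycoprotein, ran opposite to the other genes of its group. It had 99.8, 47.3 and 51.7 CPM in Girk3-null replicates 1, 2 and 3, against 36.4, 33.3 and 56.5 CPM in wild type replicates 1, 2 and 3. The high value was that of Girk3-null replicate 1, and the other 2 Girk3-null libraries lay within the wild type range. The log2 fold change of 0.66 (standard error 0.31, adjusted p = 0.355 in edgeR) was 0.24 without that library. Ctsd, a lysosomal protease of many cell types, was likewise highest there, at 1613 CPM in Girk3-null replicate 1 and 1112 and 899.6 CPM in the other Girk3-null libraries, against 827 to 956 CPM in wild type libraries.

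Among the signalling adaptors and Fc receptors, Girk3-null replicate 3 was the lowest library for all 5 genes, and the groups overlapped for each. Tyrobp, the DAP12 adaptor that Trem2 and other receptors need to signal, had 14.6, 15.4 and 8.54 CPM in Girk3-null replicates 1, 2 and 3, against 18.4, 13.0 and 9.61 CPM in wild type replicates 1, 2 and 3. Fcer1g, the shared gamma chain of Fc receptors, had 10.3, 11.03 and 6.33 CPM in Girk3-null libraries, against 14.6, 10.4 and 7.47 CPM in wild type libraries. Fcgr3, a low-affinity receptor for IgG that pairs with Fcer1g, had 17.0, 16.1 and 9.10 CPM in Girk3-null libraries, against 18.9, 12.6 and 12.7 CPM in wild type libraries.

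For all 3 genes Girk3-null replicate 3 was lowest and wild type replicate 1 highest. Their log2 fold changes were -0.09, -0.23 and -0.06, with standard errors of 0.28, 0.28 and 0.26 and adjusted p-values of 0.904, 0.718 and 0.925 in edgeR. Fcer1g (chr1:171229572-171234365, mm10) and Fcgr3 (chr1:171051174-171064935) lie 1.09 Mb and 1.26 Mb from the deleted gene Kcnj9. Fcgr3 is similar in sequence to Fcgr2b and Fcgr4, and how reads shared between them were counted is not given. Lcp2, the SLP-76 adaptor, averaged 8.29 ± 2.28 CPM among Girk3-null and 9.05 ± 1.91 CPM among wild type libraries. Laptm5, a lysosomal protein of blood cells, averaged 18.1 ± 4.85 CPM among Girk3-null and 15.7 ± 1.19 CPM among wild type libraries (SD, n = 3 each).

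The surface and adhesion proteins of leukocytes included the smallest p-value of the list. Cd53, a tetraspanin, had 10.3, 11.8 and 11.3 CPM in Girk3-null libraries, against 17.9, 14.3 and 13.1 CPM in wild type libraries. Each Girk3-null value lay below each wild type value. The log2 fold change was -0.44 (standard error 0.16, unadjusted p = 0.0213, adjusted p = 0.299 in edgeR), and between -0.53 and -0.30 when any 1 library was left out.

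Itgb2, the beta chain of the leukocyte integrins, had 29.7, 32.2 and 18.8 CPM in Girk3-null libraries, against 25.9, 22.7 and 23.0 CPM in wild type libraries. Itgam, which pairs with it on macrophages and neutrophils, had 32.4, 48.0 and 18.9 CPM in Girk3-null libraries, against 41.3, 36.9 and 29.2 CPM in wild type libraries. In both, the 3 Girk3-null libraries spanned the whole wild type range. Ptprc, the CD45 phosphatase that marks all leukocytes, averaged 19.99 ± 7.495 CPM over Girk3-null and 24.0 ± 11.3 CPM over wild type libraries, and Cd52, a small surface glycoprotein, averaged 4.13 ± 3.15 CPM among Girk3-null and 3.47 ± 1.30 CPM among wild type libraries (SD, n = 3 each). Cd52 differed 5.88-fold between its highest and lowest library, both of them Girk3-null.

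Genes of the leukocyte cytoskeleton were highest in wild type replicate 1 or Girk3-null replicate 2 for Lcp1, Plek and Coro1a. Lcp1, the actin-bundling L-plastin, had 82.8, 114 and 74.0 CPM in Girk3-null replicates 1, 2 and 3, against 126, 87.3 and 78.6 CPM in wild type replicates 1, 2 and 3. Plek, pleckstrin, a substrate of protein kinase C in platelets and leukocytes, had 18.6, 20.01 and 16.7 CPM in Girk3-null libraries, against 28.0, 22.8 and 16.3 CPM in wild type libraries. Coro1a, an actin regulator of leukocytes, had 11.7, 19.2 and 6.17 CPM in Girk3-null libraries, against 14.1, 10.2 and 7.10 CPM in wild type libraries.

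The groups overlapped for each of the 3, with log2 fold changes of -0.11, -0.28 and 0.24. The value for Coro1a was -0.23 without Girk3-null replicate 2. Aif1, an actin-binding protein known as Iba1, had 72 counts in all and averaged 0.227 ± 0.113 CPM among Girk3-null and 0.287 ± 0.159 CPM among wild type libraries (SD, n = 3 each).

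Among the genes of killing and digestion, the spread between libraries ran from 1.52-fold for Pf4 to 3.76-fold for Lyz2. Lyz2 (ENSMUSG00000069516), lysozyme, which macrophages and neutrophils both make, had 82.3, 97.1 and 25.8 CPM in Girk3-null replicates 1, 2 and 3, against 96.4, 73.5 and 32.8 CPM in wild type replicates 1, 2 and 3. It was low in 1 library of each genotype, and the log2 fold change was 0.02 with a standard error of 0.49 (adjusted p = 0.990 in edgeR). The neighbouring and similar gene Lyz1 had 268 counts against 19836 for Lyz2. Ctss, cathepsin S, a protease that trims the invariant chain, varied only 1.61-fold, with 31.9, 28.0 and 22.7 CPM in Girk3-null libraries, against 36.5, 31.7 and 23.8 CPM in wild type libraries.

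Pf4, a chemokine of platelets that some macrophages also make, had 15.2, 10.04 and 10.4 CPM in Girk3-null libraries, against 11.5, 12.2 and 12.6 CPM in wild type libraries. It was the gene here with the second narrowest spread after Csf1r, at 1.52-fold against 1.44-fold. Summed over 8 markers of megakaryocytes and platelets, the level was 48.0 to 53.7 CPM among Girk3-null and 35.3 to 44.5 CPM among wild type libraries, with 0 of 8 at 0 in all libraries. Of these sums Gp1bb took 26.0 to 33.0 CPM among Girk3-null and 19.6 to 28.8 CPM among wild type libraries. Girk3-null lay above wild type without overlap for 1 of the 7 tested markers (9.86% of all tested genes). The part of these markers in the level of Pf4 was not tested.

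Mpeg1, a pore-forming protein of phagocytes, averaged 44.6 ± 11.5 CPM among Girk3-null and 54.4 ± 15.1 CPM among wild type libraries (SD, n = 3 each). Cybb, the catalytic subunit of the phagocyte NADPH oxidase, averaged 28.1 ± 6.64 CPM among Girk3-null and 30.7 ± 8.20 CPM among wild type libraries, and its cytosolic partner Ncf1 averaged 15.04 ± 7.35 CPM among Girk3-null and 16.4 ± 4.56 CPM among wild type libraries. Spi1, the PU.1 factor, averaged 5.47 ± 1.89 CPM among Girk3-null and 5.39 ± 1.52 CPM among wild type libraries. Log2 fold changes of these 4 genes lay between -0.29 and 0.02.

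Neutrophils share Lyz2, Ncf1, Coro1a, Itgam, Cd52 and Ptprc, among other listed genes, with macrophages. The abundant markers of neutrophils were likewise low in Girk3-null replicate 3. Summed over 12 such markers the level was 342, 663 and 104.9 CPM in Girk3-null replicates 1, 2 and 3, against 714, 438 and 232 CPM in wild type replicates 1, 2 and 3. S100a9, a calcium-binding protein abundant in neutrophils, had 169.6, 309 and 39.3 CPM in Girk3-null libraries, against 317, 193 and 105.6 CPM in wild type libraries. The 12 markers all had counts, down to 34 for Ly6g. Of them 8 were lowest in Girk3-null replicate 3, while Elane, Mpo and Prtn3, made early in granulocyte development, were lowest in wild type replicate 3. Wild type replicate 1 and Girk3-null replicate 2 were the 2 highest libraries for S100a9 and for 12 of the 36 listed genes. Those 12 were Lyz2, Ncf1, Coro1a, Itgam, Cd52, Ptprc, Csf1r, Tyrobp, Fcer1g, Lcp1, Lcp2 and Spi1. The share of all tested genes with those 2 libraries highest was not computed. How much of the level of each shared gene came from neutrophils was not tested.

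**Figure D3:**
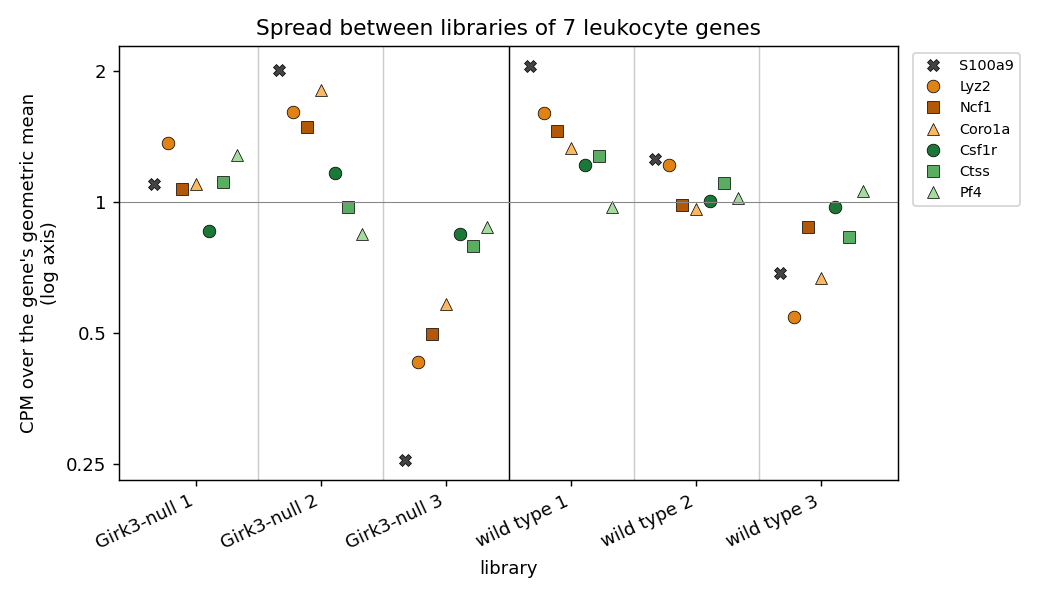
CPM of 7 genes over each gene's geometric mean of the 6 libraries (log axis, 1 point per library, Girk3-null left and wild type right). The neutrophil marker S100a9 and the shared genes Lyz2, Ncf1 and Coro1a differ 3.00- to 8.07-fold between the highest and lowest library. Csf1r, Pf4 and Ctss, at 1.44- to 1.61-fold, have the narrowest spreads of the list. Of genes not drawn, Tyrobp differs 2.15-fold, Fcer1g 2.31-fold and Cd68 3.00-fold. S100a9, Lyz2, Ncf1, Coro1a, Csf1r and Ctss are lowest in Girk3-null replicate 3.

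The MHC class II genes followed a different order of libraries from most of the list. H2-Ab1 (ENSMUSG00000073421), a beta chain, had 59.96, 82.7 and 79.7 CPM in Girk3-null replicates 1, 2 and 3, against 55.7, 48.9 and 77.9 CPM in wild type replicates 1, 2 and 3. Cd74, the invariant chain, had 2.95, 9.58 and 10.8 CPM in Girk3-null libraries, against 4.62, 4.82 and 7.25 CPM in wild type libraries. Girk3-null replicates 2 and 3 and wild type replicate 3 were the 3 highest libraries for both.

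H2-Eb1, another beta chain, had 1.55, 3.35 and 3.87 CPM in Girk3-null libraries, against 2.18, 1.23 and 3.37 CPM in wild type libraries. H2-Aa, the alpha chain that pairs with H2-Ab1, had 1.72, 4.88 and 4.99 CPM in Girk3-null libraries, against 3.07, 2.43 and 4.54 CPM in wild type libraries. The same 3 libraries were again highest, and they are the 3 whose title numbers lie above 200. Log2 fold changes between the genotypes were 0.29, 0.48, 0.37 and 0.20 for H2-Ab1, Cd74, H2-Eb1 and H2-Aa (standard errors 0.19, 0.43, 0.44 and 0.41, adjusted p-values 0.485, 0.602, 0.703 and 0.833 in edgeR). With the title number as a covariate they were 0.13, -0.08, -0.01 and -0.27, so 3 of the 4 turned in sign. Without Girk3-null replicate 1 they were 0.42, 0.88, 0.68 and 0.57. When any 1 library was left out they ranged from 0.15 to 0.50 for H2-Ab1, lowest without wild type replicate 2 and highest without wild type replicate 3. The range was 0.17 (without Girk3-null replicate 3) to 0.88 (without Girk3-null replicate 1) for Cd74, 0.065 (without wild type replicate 2) to 0.77 (without wild type replicate 3) for H2-Eb1, and -0.024 (without Girk3-null replicate 3) to 0.57 (without Girk3-null replicate 1) for H2-Aa.

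All 4 class II genes were higher in each library with a title number above 200 than in any below, as 6.35% of all tested genes were. Of the other 31 tested genes 0 were, and Mrc1 and Ctss were lower in each of them (6.16% of all tested genes). This order was noticed in the data and was not tested.

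**Figure D4:**
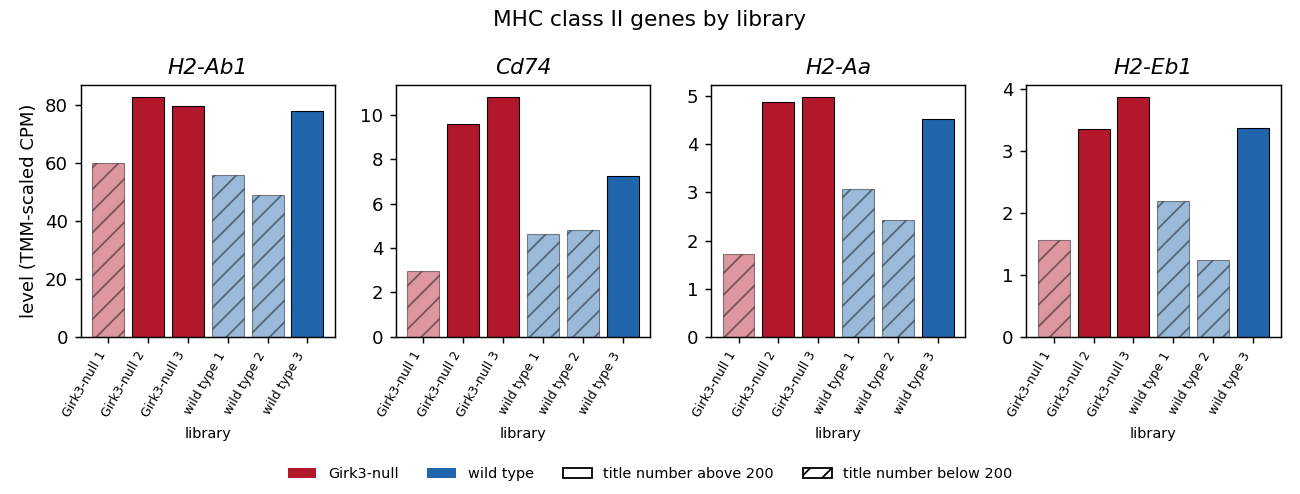
TMM-scaled CPM of the 4 MHC class II genes in each library (bars from 0, Girk3-null left in red, wild type right in blue; hatched bars mark title numbers below 200). In every panel the 3 unhatched bars, Girk3-null replicates 2 and 3 and wild type replicate 3, are the highest.

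H2-Ab1 stood far above the other class II genes per unit of length. Its deposited RPKM was 18.3 to 39.9 times that of H2-Aa in the 6 libraries, with the highest ratio in Girk3-null replicate 1. Cd74 stood at 1.998 to 2.88 times and H2-Eb1 at 0.803 to 1.43 times the RPKM of H2-Aa. Ciita, the coactivator that class II genes need in immune cells, had 45 counts over all 6 libraries. Ciita and the values of H2-Aa and Cd163 by library were singled out after their values were seen.

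Among the other genes of antigen presentation, 0 of 22 tested passed, with 4 higher (7.49% of all tested genes) and 0 lower (7.02%) at an unadjusted p under 0.05 and a median log2 fold change of 0.13, against 0.01 over all genes. Tap2, a subunit of the peptide transporter for MHC class I, had 26.5, 29.1 and 28.3 CPM in Girk3-null libraries, against 18.0, 11.9 and 18.3 CPM in wild type libraries (log2 fold change 0.80, standard error 0.17, adjusted p = 0.291 in edgeR). H2-DMb1, a chain of the peptide editor of class II molecules, had 22.2, 17.9 and 13.9 CPM in Girk3-null libraries, against 8.24, 7.97 and 14.25 CPM in wild type libraries (log2 fold change 0.83, adjusted p = 0.291). The groups did not overlap for Tap2 and overlapped for H2-DMb1, where wild type replicate 3 stood above Girk3-null replicate 3.

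Related lists of macrophage and leukocyte genes gave 0 genes that passed as well. Of 44 tested macrophage genes outside the 36, 3 were higher and 1 lower at an unadjusted p under 0.05, counts at or below the 7.49% and 7.02% of all tested genes, with a median of 0.01. The 32 leukocyte signalling genes had a median of 0.04, with 0 at an unadjusted p under 0.05. The 4 other NADPH oxidase genes had 1 higher, Cyba, the membrane partner of Cybb (log2 fold change 0.41, adjusted p = 0.339 in edgeR).

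In the CSF1 and IL34 ligand axis, 0 of 8 genes passed and the median was 0.06. Il34, a ligand of Csf1r, had 14.8, 8.41 and 12.5 CPM in Girk3-null libraries, against 6.08, 6.35 and 11.2 CPM in wild type libraries, and the groups overlapped (log2 fold change 0.60, adjusted p = 0.368 in edgeR). Csf2ra, a receptor chain for GM-CSF, had 7.56, 9.19 and 7.95 CPM in Girk3-null libraries, against 6.67, 5.83 and 6.54 CPM in wild type libraries, without overlap (log2 fold change 0.38, adjusted p = 0.333). Cx3cl1, the ligand of Cx3cr1, was abundant at 162 to 243.2 CPM among Girk3-null and 106 to 234 CPM among wild type libraries.

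Markers of other leukocytes were uneven. Genes of T and NK cells were low, with 10, 5 and 4 counts over all libraries for Cd3d, Cd3e and Cd3g. Lck (348 counts) and Trac (195) were the 2 of 12 such genes with enough counts to test. Together the 12 summed to 2.18 to 2.84 CPM among Girk3-null and 2.07 to 3.24 CPM among wild type libraries. Summed over 10 dendritic cell markers the level was 29.6 to 49.8 CPM among Girk3-null and 36.7 to 44.2 CPM among wild type libraries, of which Zbtb46 took most (log2 fold change -0.17), and Xcr1 had 0 counts. The median log2 fold change of the 5 tested dendritic markers was 0.41. Batf3, a transcription factor of dendritic and other cells, had 4.88, 5.11 and 5.05 CPM in Girk3-null libraries, against 2.71, 2.26 and 3.61 CPM in wild type libraries, without overlap (log2 fold change 0.81, standard error 0.22, adjusted p = 0.291 in edgeR). Their part in the levels of the class II genes was not tested. The 11 B lineage markers summed to 31.6, 58.0 and 34.8 CPM in Girk3-null libraries, against 37.1, 54.6 and 31.0 CPM in wild type libraries. Of these sums Ebf1 took 19.6 to 28.2 CPM and Ighm 3.71 to 21.8 CPM. The part of B cells in the levels of the class II genes was not tested. Of 8 monocyte markers 1 had a positive and 7 a negative log2 fold change (48.2% of all tested genes were negative), with a median of -0.31. The groups overlapped for all 8, with 1 higher (7.49% of all tested genes) and 0 lower (7.02%) at an unadjusted p under 0.05 in edgeR. The 8 summed to 129 to 185 CPM among Girk3-null and 137 to 205 CPM among wild type libraries. The 10 tested osteoclast markers had a median of -0.04. Mast cells, which share Fcer1g with macrophages, had the lowest median of the leukocyte lists, at -1.86 over 6 tested markers. Mcpt4, a mast cell protease, had 0.101, 0.963 and 0.748 CPM in Girk3-null libraries, against 6.10, 5.37 and 1.05 CPM in wild type libraries (log2 fold change -2.84, standard error 0.80, adjusted p = 0.291 in edgeR), and 0 mast cell markers passed. The 8 mast cell markers summed to 8.64 to 26.3 CPM among Girk3-null and 27.2 to 62.8 CPM among wild type libraries, with 0 of them at 0 in all libraries, and their part in the level of Fcer1g was not tested.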

How the data were processed

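The authors deposited raw counts per gene and RPKM, 1 column of each per library, per the file headers; RPKM was scaled to gene length and read number by the authors, per the labels' protocols. Polyadenylated RNA was sequenced from TruSeq libraries, and bcl2fastq 2.19.0, STAR 2.5.2b and genome build mm10 are named in the submitters' processing notes. A counting tool, annotation and strand setting were not given in the sources used here.

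Groups were taken from the genotype label, and replicates numbered in deposit order. The series text calls the replicates biological. Counts were fitted over all genes with edgeR 4.0.16 (quasi-likelihood, genotype alone, TMM factors, filterByExpr with a minimum count of 10) in R 4.3.3, with Benjamini-Hochberg adjustment over 17554 genes. Standard errors are the absolute log2 fold change over the square root of F. Alternatives were RLE factors, library totals, no filter, DESeq2 1.42.0, limma 3.58.1 on log2 RPKM, a title number covariate and leaving out each library. A count of 0 allows 3 counts, or 0.0497 to 0.0875 CPM scaled by library totals without TMM factors, which covers counting error only. The 36 genes and all lists were chosen with earlier results of these data known. Values by library are given, within each role, for the 3 genes of highest RPKM and for the 5 smallest p-values of the list. From the other lists, up to 2 genes of smallest p-value and the gene of highest RPKM were eligible, and others were named after their values were seen. Of 288 list symbols, 283 were found by symbol, 3 by gene identifier and 2 were not matched.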

Additional observations from a re-analysis of the deposited data

How the results depend on the processing

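In each of the 13 alternatives 0 of the listed genes tested passed (36 tested in 5 of them and 35, without Cd163, in 8; DESeq2 gave no adjusted p for Cx3cr1, Ly86 and Aif1), with a lowest adjusted p of 0.119 (Cd53 in edgeR without wild type replicate 3). No paired analysis was possible because the labels give the genotypes no shared replicate numbers. Over all genes the count that passed was 1 in the main fit, 0 with library totals only, 53 without a filter, 339 in DESeq2, 0 with either log2 RPKM pseudocount, 0 with the title number covariate, and 0 to 74 when 1 library was left out. The number of the listed genes with a positive value ranged from 9 to 21 when 1 library was left out. Library totals alone moved the median of all genes by -0.11, with 61.2% of them negative, and log2(RPKM + 0.1) by -0.11; relative to all genes the median of the list was -0.12 in the main fit and -0.13 and -0.11 under these.

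Of the 35 tested genes 15 kept their sign under every alternative. Signs turned for Cd14 with library totals (-0.068), log2(RPKM + 0.1) (-0.053), log2(RPKM + 1) (-0.052) and the covariate (-0.11), for Lyz2 (-0.10, -0.16 and -0.16) and Spi1 (-0.089, -0.099 and -0.066) under the first 3 of these, and for Cd52 on both RPKM scales (-0.11 and -0.031). With the covariate alone they turned for Ly86 (0.16), Tyrobp (0.11), Fcgr3 (0.052), Cybb (0.033), Pf4 (0.035), Cd74 (-0.081), H2-Aa (-0.27) and H2-Eb1 (-0.015).

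When 1 library was left out the log2 fold change ranged from -0.21 to 0.32 for Cd14, -0.24 to 0.089 for Pf4, -0.30 to 0.275 for Spi1, -0.32 to 0.41 for Lyz2, -0.28 to 0.19 for Tyrobp, -0.475 to 0.17 for Itgam, -0.22 to 0.17 for Fcgr3, -0.29 to 0.079 for Lcp2, -0.50 to 0.20 for Ptprc, -0.49 to 0.21 for Ncf1, -0.29 to 0.093 for Cybb, -0.024 to 0.57 for H2-Aa, -0.31 to 0.12 for Lcp1, -0.225 to 0.555 for Coro1a, -0.48 to 0.67 for Cd52, -0.43 to 0.046 for Fcer1g and -0.84 to 0.14 for Aif1. The cause was not tested. Genes with 70 to 100 counts in all, Cd163, Aif1, Cx3cr1 and Ly86, are limited by depth.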

Other observations

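The ratio of the adaptor Tyrobp to the gamma chain Fcer1g was nearly constant although both genes differed more than 2-fold between libraries. In CPM it was 1.41, 1.39 and 1.35 in Girk3-null replicates 1, 2 and 3, and 1.26, 1.24 and 1.29 in wild type replicates 1, 2 and 3. The genotypes did not overlap in this ratio, which was chosen from several after its values were seen and was not tested. The ratio of Col2a1 to Acan did not overlap either, at 8.61, 8.07 and 11.1 in Girk3-null libraries and 7.21, 5.89 and 6.44 in wild type libraries. Every other ratio computed here, all between listed genes, overlapped between the genotypes. How often ratios of further gene pairs separate the genotypes was not counted. Cd74 over H2-Aa, by contrast, was 1.72, 1.96 and 2.17 in Girk3-null libraries and 1.503, 1.98 and 1.60 in wild type libraries, and the groups overlapped. Lyz2 over Csf1r ran from 1.23 to 3.86 in Girk3-null and from 1.35 to 3.19 in wild type libraries, lowest in replicate 3 of each genotype, so these 2 genes did not keep a fixed ratio.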
